A study of Mus musculus with 7 samples.

Results

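B cell identity genes were measured in splenic CD4+CD25+ cells of aged and young mice. The set holds 9 genes that define the mature B cell: Ms4a1, Cd79a, Cd79b, Pax5, Ebf1, Cr2, Fcer2a, Blk and Tnfrsf13c. They were chosen by symbol for their known role, each symbol matched 1 Ensembl gene, and they are 9 of the 25468 genes with a count in at least 1 library. All 9 passed the filter on low counts and are among the 13904 genes tested. The comparison addresses how the regulatory T cells (Tregs) of the spleen differ with age, and these genes give the level of B cell identity transcripts in that isolate. Which cells the transcripts came from was not tested.

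Libraries were made from 3 biological replicates of 18-month-old (aged) mice and 4 of 8-week-old (young) mice, all wild type. The methods of the study describe male C57BL/6 mice and give the young ones a slightly older age than the labels do. The methods name a regulatory T cell isolation kit for the transfused Tregs. Kits of this type deplete cells that are not CD4+, among them cells carrying the B cell marker CD45R, and then select CD25+ cells. Whether a replicate is 1 mouse or a pool is not stated in the labels, so the p-values measure the spread between these libraries. Gene counts per library ran from 10734234 to 13649310, and the 3 aged libraries were each shallower than the 4 young ones. The isolate carried its defining transcripts in all 7 libraries. Foxp3, the lineage factor of Tregs, was at 446 to 620 counts scaled to library size (CPM, with TMM factors) in aged and 393 to 517 in young libraries.

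B lymphocytes make antibody. Their antigen receptor is a membrane immunoglobulin that signals through the paired chains CD79A and CD79B, and BLK is a Src family kinase that acts at this receptor. EBF1 and PAX5 are the transcription factors that set and hold B cell identity. CD20 (Ms4a1), complement receptor 2 (Cr2, CD21) and the low affinity IgE receptor (Fcer2a, CD23) stand on the mature cell, and the BAFF receptor (Tnfrsf13c) carries the survival signal that keeps it alive in the spleen. In RNA from a whole isolate, fewer B cells and less RNA per B cell cannot be told apart.

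Most of these transcripts had a lower mean level in the aged isolate, and 1 passed the test. Of the 9 genes, 1 (Tnfrsf13c) was called lower with an adjusted p under 0.05 (quasi-likelihood test of edgeR, adjusted over all genes tested by Benjamini-Hochberg), and 0 were called higher. Across all genes tested, 6.94% were called lower and 9.8% higher. Among genes at least as abundant as the lowest of the 9, 10.2% were called lower. By DESeq2, 4 of the 9 were called lower, against 7.9% of the genes that tool tested. An unadjusted p under 0.05 was reached by 5 of the 9, against 32.7% of all genes. The estimated log2 fold change (aged over young) was negative for 8 of the 9, with a median of -0.62 and a range of -1.01 to 0.21, beside a median of 0.02 over all genes tested. Every aged library was below every young library for 2 of the 9 (Ms4a1 and Tnfrsf13c), against 14.4% of all genes. The reverse, every aged library above, held for 0 of the 9 and for 15.5% of all genes.

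**Figure D1:**
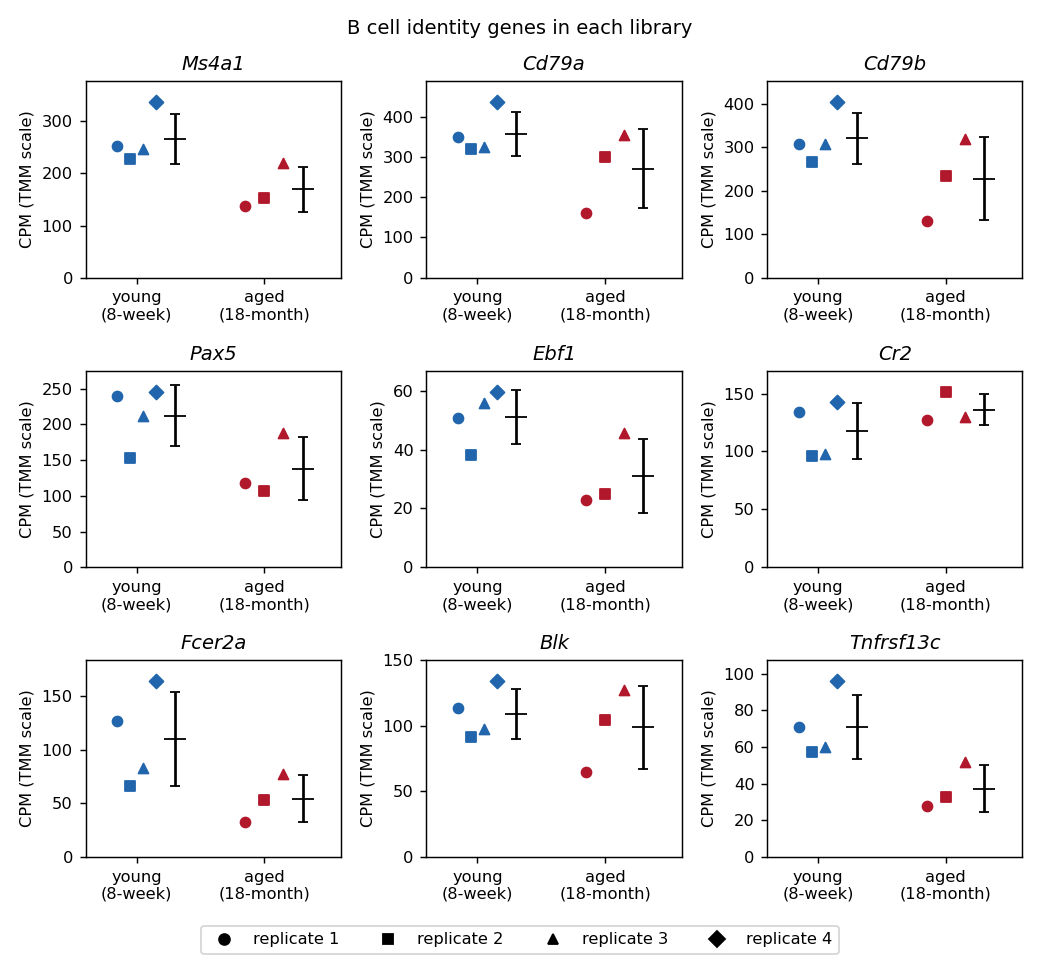
CPM (TMM scale, linear axis from 0) of the 9 B cell identity genes in the 3 aged and 4 young libraries, with 1 point per library, a marker shape per replicate and the group mean ± SD beside the points. Aged and young points separate for Ms4a1 and Tnfrsf13c and overlap for the other genes, and aged replicate 1 is the lowest library for 7 of them.

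The set as a whole was a small part of each library. The 9 genes together took 0.0854% to 0.210% of the gene counts, and single genes had 248 to 6094 counts per library, far above the limit of 3 counts (0.21 to 0.302 CPM). Their summed level was 820, 1160 and 1512 CPM in aged replicates 1 to 3. It was 1646, 1312, 1484 and 2019 CPM in young replicates 1 to 4. Aged replicates 1 and 2 were below all young libraries, and aged replicate 3 lay within the young range. Scaled instead to 12 T cell genes, the sum was 195, 252 and 322 counts per 1000 T cell counts in the aged libraries and 411, 265, 392 and 511 in the young ones. Young replicate 2 remained below aged replicate 3 on that scale too.

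Compared per length, the receptor chains led the set at both ages. In young libraries Cd79a was at 245 ± 37.4 and Cd79b at 224 ± 41.0 on the RPKM scale (CPM over exon length; SD, n = 4). In aged libraries they were at 186 ± 68.1 and 159 ± 66.5 RPKM (SD, n = 3). For scale, Foxp3 was at 97.3 RPKM in young and 112 in aged libraries on the same measure, and Cd3e, a chain of the T cell receptor complex, at 54.6 and 75.2. The length of a gene is that of all its annotated exons together, 1457 bases for Cd79a and 4080 for Cd3e. Levels of different genes depend on that choice. In young libraries Ms4a1 (43.0), Blk (40.5), Fcer2a (35.6) and Tnfrsf13c (34.6 RPKM) followed as a group whose neighbours overlapped, then Pax5 (23.98), Cr2 (14.5) and Ebf1 (5.24). In the aged libraries the order was Blk (36.7), Ms4a1 (27.4), Tnfrsf13c (18.2), Fcer2a (17.7), Cr2 (16.8), Pax5 (15.6) and Ebf1 (3.19 RPKM). Neighbours in the order did not overlap between Cd79b and the next gene at both ages, between Tnfrsf13c and Pax5 and between Cr2 and Ebf1 in young libraries, and between Pax5 and Ebf1 in aged libraries. The other neighbours overlapped over libraries.

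Tnfrsf13c, the receptor through which BAFF keeps mature B cells alive, was the member that passed the test. Its level was 27.5, 32.5 and 51.6 CPM in aged replicates 1 to 3. It was 70.8, 57.0, 60.1 and 95.8 CPM in young replicates 1 to 4. All 3 aged libraries were below all 4 young libraries, with aged replicate 3 closest to the young range. The log2 fold change was -0.93 (SE 0.252, adjusted p = 0.0391), a level 0.525 times that of young libraries, and the exact permutation test over libraries (two-sided) gave p = 0.0571, the smallest that 3 against 4 libraries allow. The gene lies on GRCm38 at chr15:82221743-82224369, minus strand. The call was lost without aged replicate 1 (adjusted p = 0.0786, edgeR), aged replicate 2 (0.109), young replicate 1 (0.0855), young replicate 3 (0.064) or young replicate 4 (0.0865), with the direction kept.

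Ms4a1, which encodes CD20, came next by the test. It was at 137, 153 and 219 CPM in the aged libraries. It was at 253, 227, 247 and 337 CPM in the young libraries. The groups did not overlap, but the gap between aged replicate 3 and young replicate 2 was small. The log2 fold change was -0.65 (SE 0.197) with an adjusted p of 0.0562 by edgeR and 0.00737 by DESeq2. With 1 library left out, edgeR called it in 1 of 7 fits, the one without aged replicate 3 (-0.87, adjusted p = 0.0332), and the estimates of the 7 fits ran from -0.87 to -0.51 with adjusted p-values up to 0.145. It lies at chr19:11249675-11266241, minus strand.

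Fcer2a, the IgE receptor CD23 of follicular B cells, had the largest standard error of the 9. It was at 32.8, 53.7 and 77.3 CPM in the aged libraries. It was at 127, 66.3, 82.8 and 164 CPM in the young libraries. Aged replicate 3 was above young replicate 2, so the groups overlapped. The log2 fold change of -1.01 (SE 0.367) had an adjusted p of 0.0942 (edgeR). Fcer2a lies at chr8:3681737-3694175, minus strand.

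Cr2, the complement receptor CD21 of mature B cells and follicular dendritic cells, did not share this direction. It was at 127, 152 and 130 CPM in the aged libraries. It was at 134, 96.0, 97.6 and 142 CPM in the young libraries. The groups overlapped, with young replicates 2 and 3 the lowest. The log2 fold change of 0.21 (SE 0.163, adjusted p = 0.407 by edgeR) was positive under all 17 alternative settings, from 0.080 to 0.333, and passed the test in none of them. Cr2 lies at chr1:195136811-195176716, minus strand.

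The 2 signalling chains of the B cell receptor had negative estimates that did not pass the test. Cd79a was at 161, 299 and 354 CPM in aged and 349, 319, 323 and 436 CPM in young libraries. Cd79b was at 129, 233 and 319 CPM in aged and 308, 265, 307 and 404 CPM in young libraries. In both, aged replicate 1 stood well below all other libraries and aged replicate 3 lay within the young range. Their log2 fold changes were -0.40 (SE 0.251, adjusted p = 0.314 by edgeR) and -0.50 (SE 0.281, adjusted p = 0.258). Without aged replicate 1 they were -0.13 and -0.22, and without aged replicate 3 they were -0.63 and -0.82, with no call in either case. Cd79a lies at chr7:24897381-24902197 on the plus strand and Cd79b at chr11:106311341-106314762 on the minus strand.

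Blk, the kinase of the same receptor, had levels that overlapped between the ages. It was at 64.8, 105 and 128 CPM in aged and 114, 91.3, 97.7 and 134 CPM in young libraries. Only aged replicate 1 lay outside the young range. The log2 fold change was -0.14 (SE 0.227, adjusted p = 0.709 by edgeR), and without aged replicate 1 it was 0.084. Blk lies at chr14:63372836-63417037, minus strand.

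The transcription factors had negative estimates of similar size. Pax5, which holds B cell identity, was at 118, 107 and 188 CPM in aged and 239, 152, 212 and 246 CPM in young libraries. Ebf1, which acts before Pax5 in the lineage, was at 22.8, 24.9 and 45.7 CPM in aged and 50.6, 38.3, 55.9 and 59.7 CPM in young libraries. In both genes aged replicate 3 was above young replicate 2, and aged replicates 1 and 2 were below all young libraries. The log2 fold changes were -0.62 (SE 0.234, adjusted p = 0.104 by edgeR) for Pax5 and -0.72 (SE 0.258, adjusted p = 0.093) for Ebf1. DESeq2 called both lower, with adjusted p-values of 0.0308 and 0.0255. With 1 library left out, edgeR called both in 1 of 7 fits, the one without aged replicate 3 (log2 fold changes -0.91 and -1.10, adjusted p = 0.0404 and 0.0187). Without aged replicate 1 they were -0.53 and -0.54 (adjusted p = 0.2 and 0.187), and without aged replicate 2 they were -0.47 and -0.58 (adjusted p = 0.255 and 0.227). Pax5 lies at chr4:44524757-44710487 (minus strand) and Ebf1 at chr11:44617317-45008091 (plus strand). Exons of other genes cover 8.6% of the exon bases of Pax5, and the counts are without strand, so reads there are not unique to it.

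**Figure D2:**
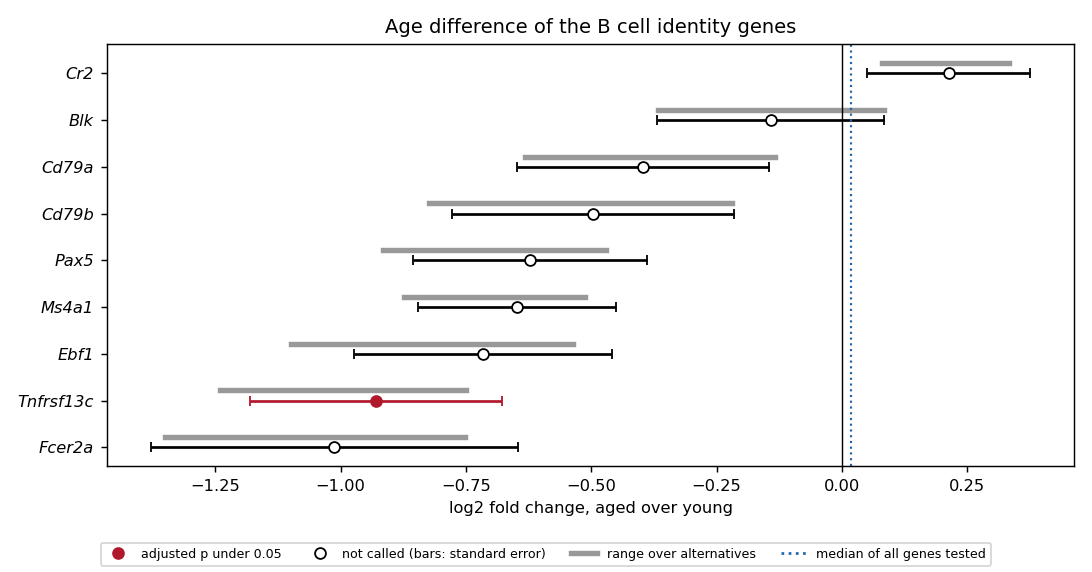
Log2 fold change (aged over young, horizontal axis) of each of the 9 genes with its standard error from edgeR; the filled point is the gene called at an adjusted p under 0.05, grey bars are the range over the 17 alternative settings, and the dotted line is the median of all genes tested. 8 of the 9 estimates are negative, Cr2 is at 0.21, and the grey range of Blk crosses 0.

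The transcripts varied together from library to library, apart from Cr2. Each gene was set against the mean of the other 8 over the 7 libraries, on log2 CPM. The libraries share one scaling factor across all genes, and only 7 points stand behind each coefficient, so they are given as a description. Pearson's r was highest for Fcer2a (0.977, Spearman's rho 0.964), Ms4a1 (0.955, rho 0.893), Tnfrsf13c (0.95, rho 0.893) and Cd79b (0.949, rho 0.893). It was 0.918 for Ebf1, 0.91 for Cd79a, 0.884 for Pax5 and 0.847 for Blk, with rho from 0.75 to 0.929. Cr2 stood apart with an r of -0.027 (rho 0.214). To set the age groups aside, r was computed again on the deviations from the age means. On those deviations the median r was 0.927, against 0.918 before, and r was 0.501 for Cr2, 0.786 for Pax5 and 0.852 to 0.961 for the other 7 genes. With 3 and 4 libraries, no r within an age is given.

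Without the 2 libraries farthest from the median, which were aged replicates 1 and 2 for Cr2 and Fcer2a and aged replicate 1 and young replicate 4 for the other 7 genes, r was 0.337 for Blk and 0.772 for Cr2, and it lay between 0.85 and 0.979 for the others. These values stand on 5 libraries each, and for Cr2 and Fcer2a only 1 of the 5 is aged. For Blk r was 0.631 without aged replicate 1 alone and 0.794 without young replicate 4 alone. Scaled to the T cell genes in place of the whole library, r was 0.902 to 0.983 for the 8 genes other than Cr2 and 0.265 for Cr2.

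**Figure D3:**
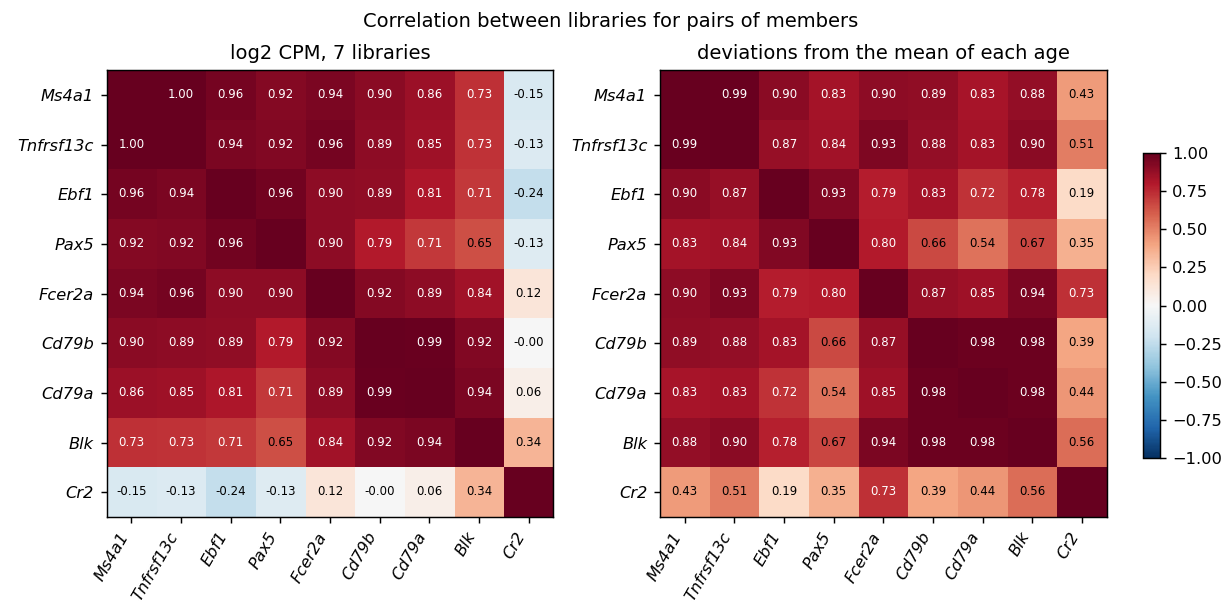
Pearson's r of log2 CPM between each pair of the 9 genes over the 7 libraries. The 28 pairs without Cr2 run from 0.648 to 0.995 with a median of 0.897, and the pairs with Cr2 reach down to -0.24.

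Over the 36 pairs of genes, the median r was 0.872 and 31 were positive. The closest pair was Ms4a1 and Tnfrsf13c, with an r of 0.995. Cd79a and Cd79b, whose proteins form 1 signalling unit, followed at 0.987, and Pax5 and Ebf1 were at 0.964. Blk was closest to Cd79a, at 0.938. After the age means were removed, the 28 pairs without Cr2 had a median r of 0.872 and ran from 0.541 to 0.988.

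The proportions of the genes to each other were compared next. A gene's log2 ratio to the mean of the other 8 hardly depends on how a library is scaled. For Cr2 this ratio was 0.906, 0.716 and -0.0572 in the aged libraries. It lay between -0.513 and -0.216 in the young libraries, below all aged values. Cr2 took 12.4% ± 3.53 (SD, n = 3) of the counts of the set in aged and 7.27% ± 0.647 (SD, n = 4) in young libraries. Blk also did not overlap, with a mean ratio 0.42 higher in aged libraries, and Tnfrsf13c did not overlap in the other direction, with a mean ratio 0.44 lower. Aged and young ratios overlapped for the other 6 genes. No share over all genes is given for this ratio. On plain CPM, every aged library was below every young one for 14.4% of all genes tested, and above for 15.5%. Each ratio shares its 9 genes with the others, so a higher ratio in 1 gene lowers those of the rest, and no test is given.

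**Figure D4:**
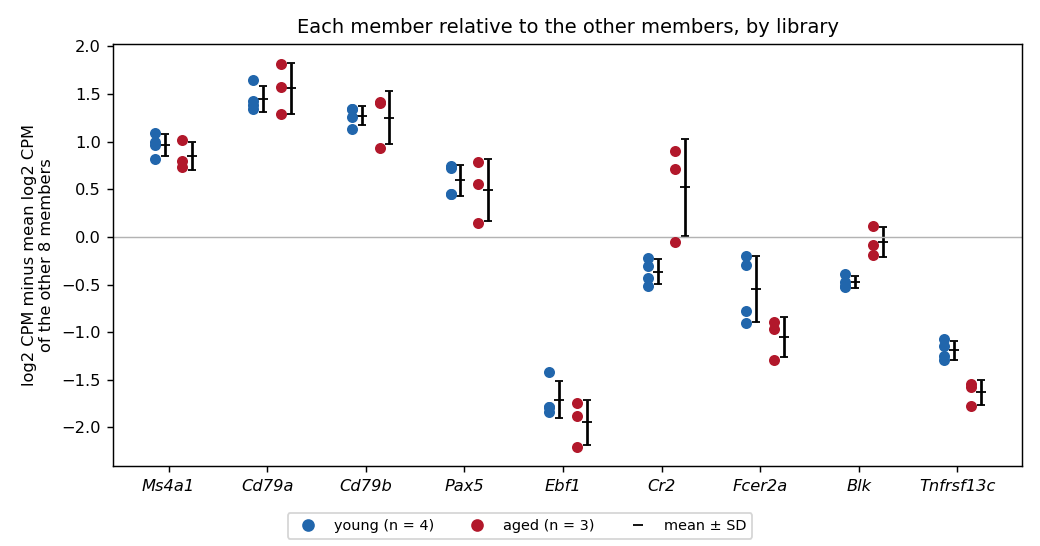
Log2 ratio of each gene to the mean of the other 8 genes, by library, with aged and young points side by side and the mean ± SD of each age. Cr2 and Blk have all aged points above the young points, and Tnfrsf13c has all aged points below.

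The libraries differed in RNA of other cells as well. The summed level of 7 neutrophil genes was 5207, 1842 and 652 CPM in the aged libraries, in replicate order, and 256 to 919 CPM in young libraries. S100a8 and S100a9, which encode the calprotectin subunits, were the 2 called higher of the 7, with 0 lower (log2 fold changes 2.25 and 2.43, edgeR adjusted p = 0.0468 and 0.0278). With 1 library left out, S100a8 was called in 2 of 7 fits and S100a9 in 4 of 7. Aged replicate 1, the library lowest in B cell transcripts, was the highest in neutrophil transcripts, while young replicate 2, the lowest of the young libraries in the 9 genes (1312 CPM), was the lowest of all 7 in neutrophil transcripts (256 CPM). Of 7 macrophage and monocyte genes, 2 were called lower, Csf1r and Adgre1 (log2 fold changes -1.12 and -0.70), and 0 higher. Of 5 dendritic cell genes, 2 were called lower, Clec9a and Siglech (both -1.64), and 1 higher, Zbtb46 (0.95). Clec9a was called in 1 of the 7 fits with 1 library left out, and Zbtb46 in 6. For Csf1r, Adgre1, Clec9a and Siglech, r with the mean of the 9 genes over the 7 libraries was 0.775, 0.812, 0.867 and 0.755. These 4 were chosen as called lower, which favours a positive r. It was -0.347 for Zbtb46 and -0.359 for the macrophage gene Lyz2 (log2 fold change 0.22, not called). The other genes of both lists had an r of 0.46 to 0.852. Deviations from the age means gave 0.583 to 0.826 for the 4 called lower, 0.644 for Zbtb46 and -0.298 for Lyz2. The summed erythroid level ran from 10006 to 126423 CPM without separating the ages. The summed T cell level was 4198 to 4700 CPM in aged and 3789 to 4958 in young libraries. Il2ra, which encodes the CD25 used for selection, was at 326 to 480 CPM in aged and 470 to 683 in young libraries, with a log2 fold change of -0.61 and an adjusted p of 0.0588 (edgeR), and it was called lower in 4 of 17 alternatives, DESeq2 among them (lowest adjusted p 0.00672). The part of these differences, and of the depth, in the B cell values was not tested.

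A B cell receptor chain was also set against a T cell receptor chain in each library. Cd79a over Cd3e, per length, was 1.72, 2.46 and 3.12 in the aged libraries, and in the young libraries it was 4.44, 3.69, 4.28 and 5.61. On CPM, without lengths, the ratio was 0.613, 0.877 and 1.11 in the aged libraries. It was 1.58, 1.32, 1.53 and 2.00 in the young libraries. All aged ratios of this pair were below all young ratios. The pair was chosen after the values were seen. Of the 6 pairs of Cd79a or Cd79b with Cd3d, Cd3e or Cd3g, the ages did not overlap in the 2 with Cd3e and overlapped in the other 4. Cd3e itself was called higher in aged libraries (log2 fold change 0.46, edgeR adjusted p = 0.0301), a call kept in 2 of the 7 fits with 1 library left out.

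Other genes of the mature B cell were counted by list, beside the 6.94% called lower and 9.8% called higher of all genes tested. Of 12 further surface genes, 2 were called lower and 1 higher, with a median log2 fold change of 0.02. Fcmr, the Fc receptor for IgM, fell by 1.24 on the log2 scale (adjusted p = 0.0095, edgeR), and Fcrla, an Fc receptor-like protein of B cells, fell by 0.79 (adjusted p = 0.0354; called in 3 of the 7 fits with 1 library left out). Fcgr2b, the inhibitory IgG receptor, rose by 0.63 (adjusted p = 0.0473), a call lost in 11 of 17 alternatives, among them RLE normalization, library size only and T cell scaling.

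**Figure D5:**
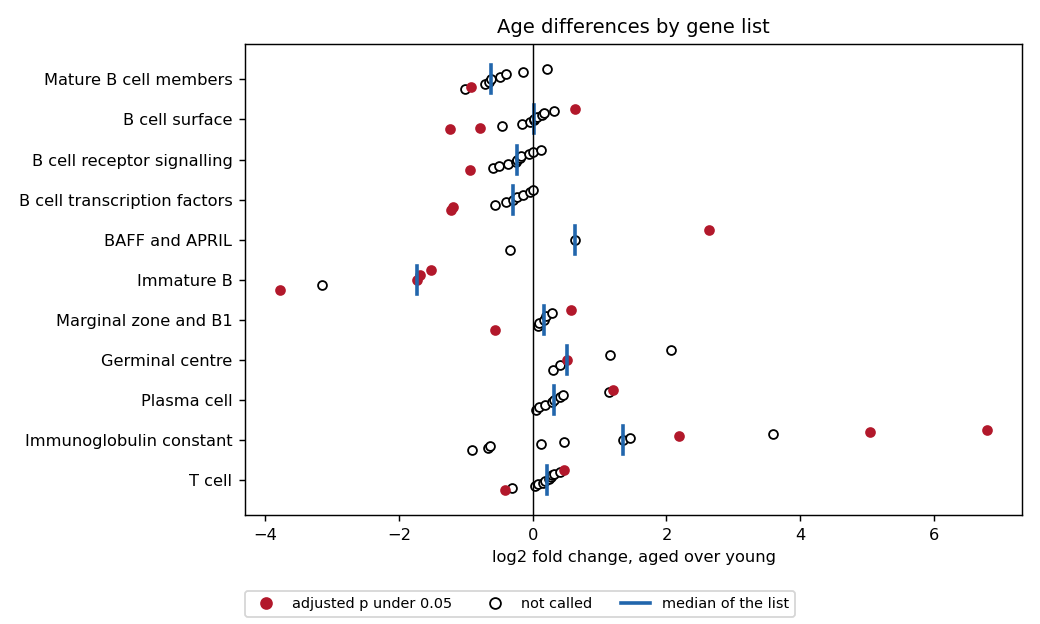
Log2 fold change (aged over young) of the genes of the B lineage lists and the T cell list, with 1 point per gene tested and the median of each list marked; filled points passed an adjusted p under 0.05. The medians run from -1.74 for the immature B genes to 1.34 for the immunoglobulin constant genes, and the 9 identity genes have a median of -0.62.

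Downstream of the receptor, 1 of 11 signalling genes was called lower and 0 higher, with a median log2 fold change of -0.24. It was Pik3ap1, an adaptor for phosphoinositide 3-kinase, with a log2 fold change of -0.94 (SE 0.219, adjusted p = 0.0235, edgeR; called in 4 of the 7 fits with 1 library left out). Of 9 transcription factors, 2 were called lower and 0 higher, and all 9 estimates were negative with a median of -0.30. Spib fell by 1.23 (adjusted p = 0.0137, edgeR) and Bach2, which T cells also express, by 1.19 (adjusted p = 0.00503) on the log2 scale. The Bach2 call held under all 17 alternatives.

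Genes of the immature B cell stage were examined in a list of their own. Of 7 such genes 5 could be tested, and 4 of them were called lower and 0 higher, with a median log2 fold change of -1.74. They were Rag1, the recombinase that developing T cells also express (2.72 ± 4.01 CPM in aged and 36.4 ± 27.7 in young libraries), Cd93, a receptor of immature B cells (7.30 ± 0.401 and 24.4 ± 7.61), Vpreb3, a surrogate light chain homologue (7.55 ± 4.74 and 24.3 ± 6.12) and Dntt, the terminal transferase of both developing lineages (2.07 ± 0.402 and 5.95 ± 2.18; SD, n = 3 and 4). In the same order, edgeR gave adjusted p-values of 0.0376, 0.00301, 0.0415 and 0.0163. Rag1 in aged libraries was uneven, with 1, 73 and 8 counts, and the calls of Rag1 and Vpreb3 each held in 2 of the 7 fits with 1 library left out. On deviations from the age means, their r with the mean of the 9 identity genes was 0.663 for Vpreb3, 0.308 for Rag1, -0.064 for Cd93 and -0.81 for Dntt. Igll1, a surrogate light chain, had 0, 1 and 0 counts in aged and 10 to 12 counts in young libraries and was too low to test. Rag2, the partner of Rag1, was tested and not called (log2 fold change -3.16, adjusted p = 0.0739, edgeR), and Vpreb1 was not tested.

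Immunoglobulin constant genes and plasma cell genes were examined in 2 lists. Of 11 tested immunoglobulin constant genes, 3 were called higher and 0 lower, with a median log2 fold change of 1.34. They were Ighg2c (13.1 ± 7.70 CPM in young and 1458 ± 651 in aged libraries; adjusted p = 0.000483, edgeR), Ighg2b (25.9 ± 20.4 and 859 ± 596; adjusted p = 0.00258) and Igha (288 ± 185 and 1303 ± 752; adjusted p = 0.0455, SD, n = 4 and 3). The estimates of Iglc1, Iglc2 and Iglc3 were negative (log2 fold changes -0.64, -0.91 and -0.67, not called by edgeR), and those of the other 8 constant genes were positive. Among 9 plasma cell genes 1 was called higher, the factor Prdm1, which T cells also express (log2 fold change 1.2, adjusted p = 0.0326). The calls of Igha and Prdm1 each held in 2 of the 7 fits with 1 library left out. Young replicate 2, the young library with the lowest sum of the 9 identity genes, had the highest summed plasma cell level of all libraries, at 2362 CPM, and 20549 CPM of immunoglobulin constant genes against 5202 to 6565 CPM in the other young libraries. Leaving it out did not change the count of the 9 genes called.

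Among 7 marginal zone and B1 genes, Cd1d1 was called higher (log2 fold change 0.57, adjusted p = 0.00509, edgeR) and Dtx1 lower (-0.56, adjusted p = 0.0163). Of 5 tested germinal centre genes 1 was called higher, S1pr2 (0.51, adjusted p = 0.0362; called in 6 of 17 alternatives), and Mef2b, with 0 or 1 count in every library, was too low to test. Of 4 genes known from age-associated B cells 1 was called higher, Tbx21 (1.04, adjusted p = 0.0105), which T cells also express. Of the 4 estimates 3 were positive and 1 was negative, that of Itgax (-0.72, adjusted p = 0.0592, edgeR). Among 3 tested genes of the BAFF and APRIL system beside the BAFF receptor, the ligand Tnfsf13b was called higher, at 6.33 ± 1.28 CPM in aged and 1.00 ± 0.310 in young libraries (adjusted p = 0.00125, edgeR; SD, n = 3 and 4). Its receptor Tnfrsf13c, as given above, was lower in the same libraries.

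The genes whose levels followed the set most closely included other genes of B cell signalling. The measure was Pearson's r over 7 libraries with the mean of the 9 standardised log2 CPM, among 11943 other genes. The 10 highest were Napsa (0.983), an aspartic protease, Btk (0.975), the kinase downstream of the B cell receptor, Cacna1i (0.973), a calcium channel, Kcnj10 (0.970), a potassium channel, Hhex (0.968), a homeobox factor, Swap70 (0.966), an exchange factor, Syk (0.963), a receptor-proximal kinase, Bcl11a (0.962), a zinc finger factor, Mapk11 (0.961), a MAP kinase, and Siglecg (0.958), an inhibitory lectin. Of these, 5 (Btk, Swap70, Syk, Bcl11a and Siglecg) stand in the B cell lists above. Of the 10, 0 were called by edgeR. Their log2 fold changes were negative and their r on deviations from the age means was 0.937 to 0.973, both of which their selection largely fixed.

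RefSeq (GRCm38.p6) windows were matched for 6 of the 9 genes, with 9 start sites in all. The 250 bases before the start are printed for the gene that passed the test, for the leading receptor chain and for the gene that did not share the direction, 5′ to 3′ on the gene's strand. Capitals mark matches on either strand to CAGGTG (E2A E-box, reverse CACCTG) or GAGGAA (PU.1, reverse TTCCTC). The windows are chr15:82224381-82224630 (minus strand), chr7:24897247-24897496 (plus strand) and chr1:195176720-195176969 (minus strand) in that order. The RefSeq start of Cd79a lies downstream of the start in the coordinates given above, so part of its window lies within the gene as given there.
Tnfrsf13c: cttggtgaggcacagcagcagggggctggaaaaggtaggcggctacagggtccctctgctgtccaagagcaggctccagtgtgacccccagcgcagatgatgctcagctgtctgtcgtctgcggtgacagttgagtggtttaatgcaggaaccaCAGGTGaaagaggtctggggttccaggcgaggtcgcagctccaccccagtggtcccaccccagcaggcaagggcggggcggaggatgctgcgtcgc
Cd79a: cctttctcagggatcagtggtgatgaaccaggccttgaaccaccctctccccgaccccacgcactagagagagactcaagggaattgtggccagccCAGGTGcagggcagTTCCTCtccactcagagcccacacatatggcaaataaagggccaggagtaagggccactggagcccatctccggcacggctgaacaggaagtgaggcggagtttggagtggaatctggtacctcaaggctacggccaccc
Cr2: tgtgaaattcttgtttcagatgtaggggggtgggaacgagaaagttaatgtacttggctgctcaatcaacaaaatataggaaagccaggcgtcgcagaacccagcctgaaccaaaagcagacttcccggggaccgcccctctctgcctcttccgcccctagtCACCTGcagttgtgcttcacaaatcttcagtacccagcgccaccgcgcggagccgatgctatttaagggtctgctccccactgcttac

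The E-box letters CAGGTG were present in 4 of the 9 windows, against 17.2% of 32851 promoter windows of the same length, and GAGGAA in 2 of 9, against 23.3%. The octamer ATTTGCAT and the EBF1 letters CCCNNGGG were in 0 of 9, against 1.6% and 11.8%. The 4 windows with CAGGTG belong to Tnfrsf13c, Cd79a, Cr2 and 1 of the 3 starts of Fcer2a, so that both Cr2, with a positive estimate, and Tnfrsf13c, which was called lower, hold it. These are matches of letters in a window and not binding sites, and a window without them says only that the letters are not there.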

How the data were processed

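RNA-sequencing libraries (SMART-Seq v4 cDNA) of CD4+CD25+ splenocytes were used, 3 biological replicates from aged and 4 from young mice. The authors deposited raw counts per Ensembl gene in each library, and 1 table of counts divided by a size factor per library (signal); the build is mm10 in the submitters' processing notes. The aligner is not given in the sources used here. Reads not on 1 gene (13.1% to 20.9%) were left out. The deposited normalized signal gave whole reads for 100% of values (tolerance 0.01), equal to the counts, and edgeR on those reads called 2327 genes. The table also holds the authors' own fold changes and p-values, which were not used.

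The comparison of ages used the quasi-likelihood test of edgeR 4.0.16 under R 4.3.3 (TMM, filterByExpr, no covariate; Benjamini-Hochberg over 13904 genes; called at an adjusted p under 0.05). The study names limma; limma 3.58.1 (voom) and DESeq2 1.42.0 were alternatives. Standard errors are the absolute log2 fold change divided by the root of F. CPM are counts scaled to library size and TMM factor, and log2 CPM uses a prior count of 2. RPKM uses the joined length of all annotated exons of a gene in GENCODE M21 (GRCm38), which also gave the coordinates. Exact permutation tests used 35 splits. Correlations were computed with numpy 2.4.6 and are given without p-values. Counting limits cover counting error only, since the cDNA carries no molecular identifiers. Libraries within an age were further apart than counting noise (chi-square per degree of freedom 8.88 to 185), so none was taken as a repeat of another; the sample unit is that of the labels. The edgeR test was tested on simulated data.

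The 9 genes and the gene lists were chosen with earlier results of these data known. The genes named are the 9, up to 4 called genes per list with the largest change, list genes at under 3 counts in a group, the 10 genes most alike, and Cd4, Il2ra and Foxp3. Cd3e was set beside Cd79a after its values were seen. Lyz2, which was not called, is named beside the macrophage genes. Some results are not reported here. The marker lists of CD8 T, NK, macrophage, dendritic and platelet cells were read as well. Alternatives were other scalings, filters and tools, a replicate block, and leaving out each library. The use of recovered reads was chosen after seeing the data.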

Additional observations from a re-analysis of the deposited data

How the results depend on the processing

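Of 17 alternatives, 7 left the count of the 9 genes called lower at 1, and in all 17 the count called higher was 0. Recovered reads, 1 of the 7, were equal to the counts, so that alternative could not differ from the main fit. The same holds wherever results are counted over the 17. The count called lower was 3 without the filter on low counts (Fcer2a, Ms4a1 and Tnfrsf13c), 2 by limma voom (Ms4a1 and Tnfrsf13c) and 4 by DESeq2 (Pax5, Ms4a1, Ebf1 and Tnfrsf13c). With 1 library left out it ran from 0 to 4: it was 4 without aged replicate 3, 1 without young replicate 2 and 0 without any of the other 5. Over all alternatives the median log2 fold change of the 9 ran from -0.87 to -0.51, and the sign of Blk turned without aged replicate 1 (0.084; range with 1 library left out -0.37 to 0.084). Scaling per T cell counts moved the median log2 fold change of all genes from 0.02 to -0.10 and that of the 9 from -0.62 to -0.77. The Tnfrsf13c call held in 11 of 17 alternatives, with adjusted p-values of 0.00157 to 0.135. The median r with the other genes was 0.918. It was 0.938 with library size only, 0.943 per T cell counts, 0.873 without the 2 farthest libraries and 0.908 to 0.961 with 1 library left out. The cause of these changes was not tested.

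The labels do not state that replicate numbers pair the samples. Same-numbered libraries had correlations of deviations of -0.091, -0.29 and -0.14. Deviations sum to 0 within an age, so these few values cannot decide whether a pairing exists. With the replicate block, 292 genes were called in place of 2327, and 0 of the 9. Over all genes, DESeq2 called 2884 and fits with 1 library left out 1237 to 3058. The lowest count of the 9 genes was 248, and since each aged library was shallower than each young one, depth and age cannot be told apart.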

Other observations

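Single genes of other cells were called as well. Of 7 macrophage and monocyte genes, Csf1r (log2 fold change -1.12) and Adgre1 (-0.70) were called lower in aged libraries, with edgeR adjusted p-values of 0.0031 and 0.0127. Of 5 dendritic cell genes, Clec9a (-1.64, adjusted p = 0.049) and Siglech (-1.64, adjusted p = 0.014) were called lower and Zbtb46 (0.95, adjusted p = 0.0154) higher. With 1 library left out, Clec9a was called in 1 of 7 fits, Siglech in 7 and Zbtb46 in 6. Among 4 NK cell genes Klrb1c was called lower (-0.73, adjusted p = 0.0185), and among 4 platelet genes Ppbp was called higher (1.80, adjusted p = 0.0213), each in 4 of the 7 such fits. Of 2 CD8 T cell genes and 4 erythroid genes, 0 were called by edgeR in either direction, and 0 had an unadjusted p under 0.05. Among 4 Treg genes, 0 were called by edgeR, 3 had an unadjusted p under 0.05, and Cd4, a T cell gene, had a log2 fold change of -0.30 (adjusted p = 0.117). The T cell gene Cd5 was called lower (-0.42, adjusted p = 0.0422), a call that held in 8 of 17 alternatives.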
